A study of Rattus norvegicus with 28 samples.

Results

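Cxcl9 and Cxcl10 are 2 of the 30560 genes in the deposited spinal cord and brain count tables, and they were picked by identifier, ENSRNOG00000022242 for Cxcl9 and ENSRNOG00000022256 for Cxcl10. Cxcl9 was chosen for the largest rise in plus-marked lumbar spinal cord among genes with a mean of at least 1 CPM (counts per 1000000 counts of a library) and no overlap between the marks, and Cxcl10, its sister gene, was taken with it. By fold change alone Cxcl9 was the second of the genes tested there. The spinal cord contrast therefore chose the members and is described here without a test. The brain contrast was not used in the choice and is tested, though the tests were chosen with earlier results of these data known.

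RNA was sequenced from rats labelled mtCO3mut and from wild-type rats. In the mtCO3mut rats mitochondrial DNA was edited to make neurons deficient in complex IV of the respiratory chain, cytochrome c oxidase, and the design text writes their name with NeuN-Cre, a recombinase named for a protein of mature neurons. Lumbar spinal cord and brain each had 4 mtCO3mut and 4 wild-type libraries, and an early-stage spinal cord set had 6 of each. The sources used here give no age, strain or treatment and no allele that both groups share. Column names hold a number and a mark for plus or minus, and no genotype. The plus mark is taken here for mtCO3mut and the minus mark for wild type, which neither labels nor tables state. Libraries are therefore named by their mark, and a reversed meaning of the marks would reverse each direction against genotype. The 12 column names of the early-stage table could not be tied to a genotype, and that stage is not analysed here. The plan for that case, to list each library's value without a comparison, was not carried out. Libraries are called P1 to P4 (plus-marked) and M1 to M4 (minus-marked), in the order of the numbers in their names. The same number, and so the same name here, occurs once in each tissue, which may mean the same animal. If it does, the brain test is not independent of the spinal cord values that chose the members.

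CXCL9 and CXCL10 are small secreted chemokines that draw T cells and natural killer cells carrying the receptor CXCR3. In mouse and human both are induced by interferon gamma, and CXCL10 also answers strongly to type I interferon and to NF-kappaB. In the injured or infected nervous system, microglia, astrocytes and endothelial cells are known sources of these ligands. In RefSeq (GRCr8) the genes are direct neighbours on rat chromosome 14, with Cxcl11, the third CXCR3 ligand, next to Cxcl10.

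The sequences around both start sites are shown because the results turn on how these neighbours compare with each other. Each window covers 250 bases before and 50 bases from the annotated start, on the plus strand of GRCr8 in RefSeq, chr14:16006916-16007215 for Cxcl9 and chr14:15988816-15989115 for Cxcl10. Capitals mark matches to 4 motifs, picked after both sequences had been seen and searched on both strands.
Cxcl9: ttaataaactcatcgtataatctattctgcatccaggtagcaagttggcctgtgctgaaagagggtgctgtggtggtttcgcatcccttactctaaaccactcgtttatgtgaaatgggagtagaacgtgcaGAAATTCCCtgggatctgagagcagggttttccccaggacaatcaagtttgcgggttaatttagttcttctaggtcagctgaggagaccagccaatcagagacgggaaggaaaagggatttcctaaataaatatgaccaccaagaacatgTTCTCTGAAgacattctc
Cxcl10: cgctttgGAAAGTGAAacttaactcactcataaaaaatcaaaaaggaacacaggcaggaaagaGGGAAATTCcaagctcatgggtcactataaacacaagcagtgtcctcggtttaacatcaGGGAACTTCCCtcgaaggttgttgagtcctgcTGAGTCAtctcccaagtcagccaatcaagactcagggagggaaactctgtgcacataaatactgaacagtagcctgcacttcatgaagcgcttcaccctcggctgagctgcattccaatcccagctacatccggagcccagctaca

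Counting the annotated start base as 0, the Cxcl10 window held GAAANNGAA, the core of an interferon-stimulated response element, at -243 to -235. It held the NF-kappaB motif GGGANNTTC at -187 to -179 and again at -128 to -120, the latter overlapping a match on the other strand at -126 to -118. The AP-1 motif TGANTCA lay at -96 to -90. In the Cxcl9 window GGGANNTTC matched on the other strand at -118 to -110, and the gamma-activated site TTCNNNGAA matched at 32 to 40, past the start. Over all 27457 RefSeq windows of the same length, 9.5% held GAAANNGAA, 3.93% GGGANNTTC, 7.33% TGANTCA and 8.68% TTCNNNGAA. Only these spellings were searched, and the number of matches in each window depends on them. A match is a match of letters only, and no binding was measured.

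Total counts ran from 21008418 to 40359757 in plus-marked and from 39952615 to 47597097 in minus-marked spinal cord. In brain they ran from 64782608 to 82776333 and from 33105800 to 62851529, so depth moved with the mark in brain with no overlap. Levels are given as CPM, a gene's counts per 1000000 counts of its library after TMM scaling, which evens out differences in library composition, within each tissue. A gene is called where the Benjamini-Hochberg adjusted p of the edgeR test is under 0.05. Neither the tables nor the reference used here pair identifiers with gene names, and the names Cxcl9 and Cxcl10 come from the rule that chose them. None of 193 symbols in 7 pathway and 10 cell type lists could be matched, including interferon gamma, CXCR3, Cxcl11 and the markers of T cells, microglia, astrocytes and neurons. The edited gene and the tissue labels were not checked for the same reason, and the part of other cell types in the results was not tested.

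In lumbar spinal cord Cxcl9 was higher in plus-marked libraries by the widest margin of the 4 gene and tissue combinations. The plus-marked libraries held 40.2 CPM (P1), 6.448 (P2), 15.41 (P3) and 16.51 (P4), from 1685, 132, 599 and 462 reads. The minus-marked libraries held 1.291 CPM (M1), 2.017 (M2), 0.7315 (M3) and 1.124 (M4), from 52, 96, 31 and 44 reads. The marks did not overlap, and the lowest plus-marked library was 3.2 times the highest minus-marked one. Both the size of the rise and the lack of overlap were part of the rule that chose Cxcl9. Means were 19.6 ± 14.4 CPM and 1.29 ± 0.538 CPM (SD, n = 4). The fitted fold was 15.2, or 3.92 on the log2 scale (SE 0.56). Library P1 lay far above the other plus-marked ones, and without it the log2 fold change was 3.29. In this contrast edgeR called 13.5% of 17134 genes tested in either direction and 6.83% higher, and the marks did not overlap in that direction for 9.13%, which is given as background only. In tissue RNA of this kind, more cells that express a gene and more RNA per cell cannot be told apart.

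Cxcl10 was also higher on average in plus-marked spinal cord, but the marks overlapped. The plus-marked libraries held 8.636 CPM (P1), 2.54 (P2), 4.478 (P3) and 4.502 (P4). The minus-marked libraries held 1.788 CPM (M1), 4.496 (M2), 0.8495 (M3) and 0.8174 (M4). Minus-marked library M2 thus stood at the level of the middle plus-marked libraries, and 2 of the 4 plus-marked libraries lay above every minus-marked one. Means were 5.04 ± 2.57 CPM and 1.99 ± 1.73 CPM (SD, n = 4). The log2 fold change was 1.34 (SE 0.54). With libraries left out singly it ran from 0.94 without P1 to 2.13 without M2. The libraries kept nearly the same order for both chemokines in this tissue. P1 was highest and P2 lowest among the plus-marked, and M2 was highest among the minus-marked, followed by M1.

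Column names also carry a lane-like code, which moved with the mark in spinal cord. Code L24 held 3 plus-marked libraries and minus-marked library M3, and the other libraries had a code each. Within L24 the log2 fold changes were 5.03 for Cxcl9 and 2.78 for Cxcl10, set against M3 alone, the minus-marked library lowest in Cxcl9. The part of the code in these values was not tested beyond a fit with L24 as a term. That fit gave 3.44 (SE 0.8) for Cxcl9 and 1.41 (SE 0.88) for Cxcl10.

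**Figure D1:**
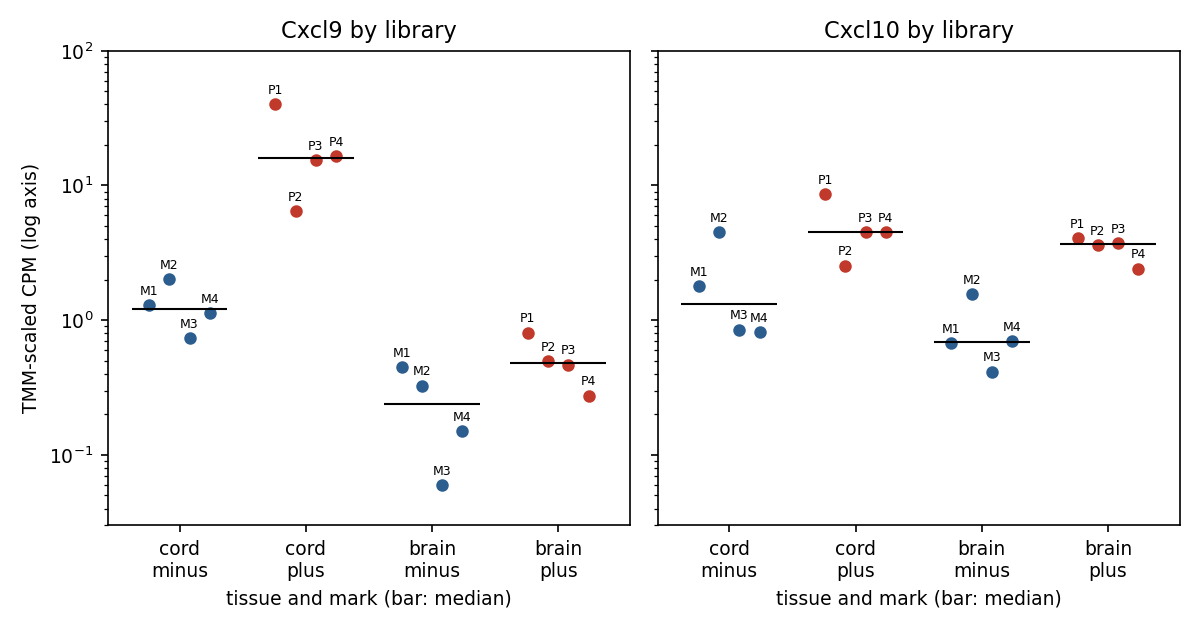
CPM of Cxcl9 (left) and Cxcl10 (right) on a log axis in each library of minus-marked (blue) and plus-marked (red) lumbar cord and brain, with the library name above each point and the group median as a line. Cxcl9 separates the marks in cord, from 6.448 CPM upward against 2.017 CPM at most, which was part of the rule that chose it. Cxcl10 separates them in brain, from 2.415 CPM upward against 1.566 CPM at most.

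In brain Cxcl10 rose. The plus-marked libraries held 4.077 CPM (P1), 3.584 (P2), 3.742 (P3) and 2.415 (P4), from 258, 290, 257 and 176 reads. The minus-marked libraries held 0.6713 CPM (M1), 1.566 (M2), 0.4159 (M3) and 0.7003 (M4), from 24, 72, 28 and 28 reads. The marks did not overlap, and library M2 was again the highest of the minus-marked. Means were 3.45 ± 0.723 CPM and 0.838 ± 0.502 CPM (SD, n = 4). Cxcl10 was 4.14-fold higher, a log2 fold change of 2.05 (SE 0.33, 95% interval 1.33 to 2.77, edgeR quasi-likelihood adjusted p = 0.0233). Of 16860 genes tested in brain, 0.243% were called in either direction and 32 genes, or 0.19%, higher, and Cxcl10 was the fifth of these by fold change. Marks without overlap in that direction were found for 2.67% of the genes tested.

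**Figure D2:**
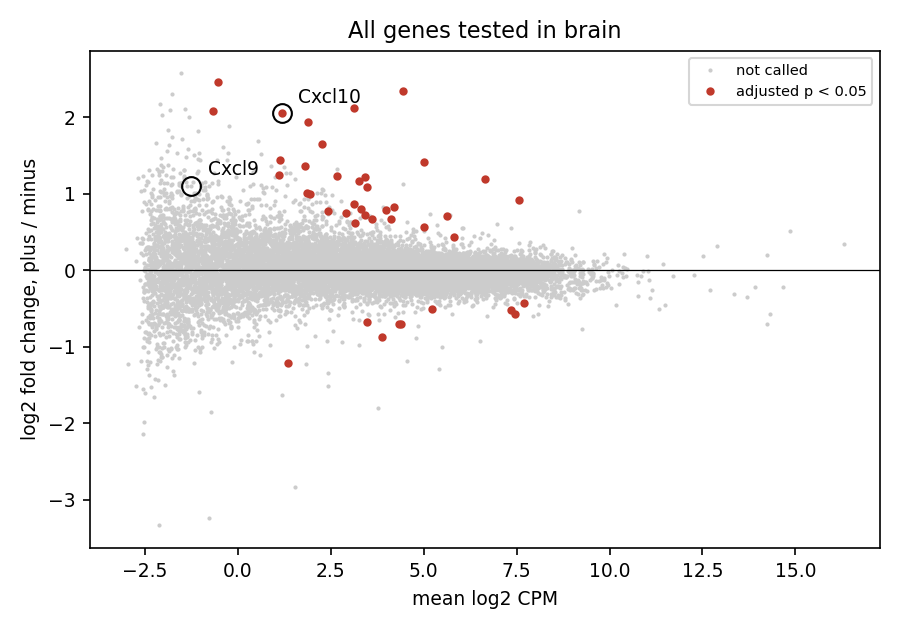
Log2 fold change, plus-marked over minus-marked, against mean log2 CPM for the 16860 genes tested in brain, with genes past an adjusted p of 0.05 in red and both chemokines circled. Cxcl10 lies among the called genes at 2.05, and Cxcl9 lies at 1.11 among genes of low level that were not called.

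The call for Cxcl10 in brain was lost when any of 5 libraries was left out. Its log2 fold change stayed between 1.80 and 2.56 when libraries were left out singly, but the edgeR adjusted p was 0.0595, 0.073 and 0.0619 without plus-marked library P1, P2 or P3, and 0.0969 and 0.104 without minus-marked library M1 or M4. Within lane-like code L3, which held P1, P2, P3, M1 and M2, it was 1.74 (edgeR adjusted p = 0.0643). Within L1, which held P4, M3 and M4, it was 2.13 (edgeR adjusted p = 0.0237). That p rests on P4 alone on the plus-marked side, assumed to vary as much as the minus-marked pair, and carries little weight. With counts thinned to the total of the smallest brain library it was 2.01 (edgeR adjusted p = 0.0171). Over all alternatives the adjusted p ran from 3.72e-07 to 0.104.

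Cxcl9 was scarce in brain and was not called. The plus-marked libraries held 0.806 CPM (P1), 0.4943 (P2), 0.4659 (P3) and 0.2744 (P4), from 51, 40, 32 and 20 reads. The minus-marked libraries held 0.4476 CPM (M1), 0.3263 (M2), 0.05942 (M3) and 0.1501 (M4), from 16, 15, 4 and 6 reads. Of the plus-marked libraries 3 lay above every minus-marked one, and library P4 lay below 2 of them. Means were 0.51 ± 0.22 CPM and 0.246 ± 0.174 CPM (SD, n = 4). The log2 fold change was 1.11 (SE 0.54, 95% interval -0.05 to 2.26, edgeR quasi-likelihood adjusted p = 0.562). As a fold the interval runs from 0.967 to 4.81. At 4 reads in library M3 the exact 95% Poisson interval is 1.09 to 10.2 reads, which covers counting error only. Within lane-like codes L3 and L1 the log2 fold changes were 0.61 and 1.45 (edgeR adjusted p = 0.993 and 1), and over all alternatives the adjusted p was at least 0.341. Whether the effect of the mark differed between both tissues was not tested, since the spinal cord contrast chose the members.

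**Figure D3:**
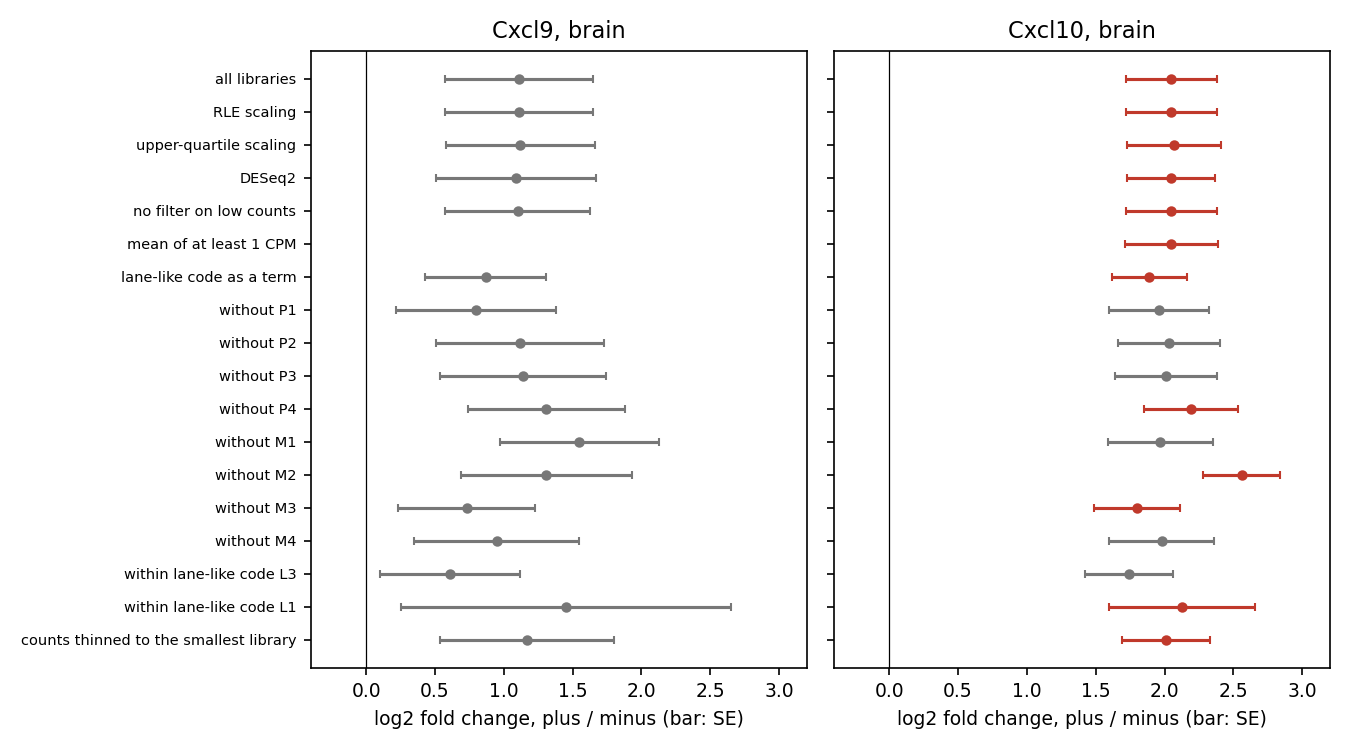
Log2 fold change in brain, plus-marked over minus-marked, for Cxcl9 (left) and Cxcl10 (right) with all libraries and under each alternative, with bars of 1 SE and red for an edgeR or DESeq2 adjusted p under 0.05. Every value lies above 0, from 0.61 to 1.55 for Cxcl9, which is red in none, and from 1.74 to 2.56 for Cxcl10. Cxcl9 has no value at a mean of at least 1 CPM, a filter it does not pass.

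The balance between both chemokines can be read from their reads. Because each gene's length is the same in every library, the share of Cxcl9 in the reads of both genes can be set side by side between libraries, though it does not say which transcript was more abundant. In plus-marked spinal cord the share was 82.3% (P1), 71.7% (P2), 77.5% (P3) and 78.6% (P4). In minus-marked spinal cord it was 41.9% (M1), 31.0% (M2), 46.3% (M3) and 57.9% (M4). The marks did not overlap, and this difference is also part of the contrast that chose the members.

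In brain the means lay in the other order. The share was 16.5% (P1), 12.1% (P2), 11.1% (P3) and 10.2% (P4) in plus-marked libraries and 40.0% (M1), 17.2% (M2), 12.5% (M3) and 17.6% (M4) in minus-marked ones. Only library M3 of the minus-marked lay within the plus-marked range. The means of 12.5% and 21.8% differed by -9.35 percentage points (exact two-sided permutation p = 0.0571, n = 4 against 4, where 0.0286 is the smallest possible). No test of the share was listed in the plan of tests. Without minus-marked library M1, whose share rests on 40 reads, the difference was -3.29 points. Within lane-like codes L3 and L1 it was -15.4 and -4.85 points.

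All 8 numbers had a higher Cxcl9 share in spinal cord than in brain. The gap was 59.6 to 68.4 percentage points in the plus-marked numbers and 1.9 (M1), 13.8 (M2), 33.8 (M3) and 40.3 (M4) points in the minus-marked ones. No test is given, since the plus-marked spinal cord values chose the members.

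**Figure D4:**
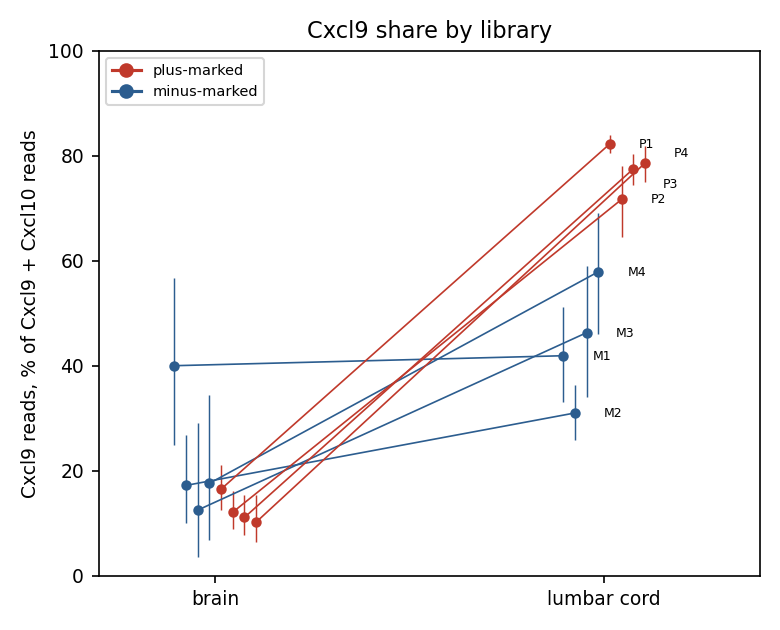
Cxcl9 reads as a percentage of Cxcl9 plus Cxcl10 reads in each library, with lines joining the brain and lumbar cord libraries of 1 number, plus-marked in red and minus-marked in blue, and bars for exact 95% binomial intervals that cover counting error only. The plus-marked libraries run from 10.2% to 16.5% in brain and from 71.7% to 82.3% in cord, and number M1 is nearly level.

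Levels were set across tissues after scaling all 16 libraries together. On that scale Cxcl9 held 16.96 ± 12.57 CPM in plus-marked and 1.12 ± 0.468 CPM in minus-marked spinal cord, and 0.59 ± 0.255 CPM and 0.284 ± 0.202 CPM in brain (SD, n = 4). Plus-marked spinal cord stood clear of the other groups, minus-marked spinal cord overlapped plus-marked brain (0.626 to 1.75 against 0.317 to 0.932 CPM), and it did not overlap minus-marked brain, which reached 0.518 CPM. Cxcl10 held 4.35 ± 2.25 CPM in plus-marked spinal cord and 4.0 ± 0.839 CPM in plus-marked brain, levels that overlapped, then 1.72 ± 1.5 CPM in minus-marked spinal cord and 0.97 ± 0.579 CPM in minus-marked brain (SD, n = 4). The minus-marked groups overlapped in Cxcl10 as well, at 0.713 to 3.9 and 0.484 to 1.81 CPM.

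Likeness of pattern was measured as Pearson's r of log2 CPM over the 16 libraries, each tissue centred on its own mean. It was taken among 15000 other genes with a mean log2 CPM of at least 0 in spinal cord. These values share libraries and marks and include the contrast that chose the members, so they are a description. Cxcl9 and Cxcl10 had an r of 0.781 with each other. That placed Cxcl10 at rank 353 among the genes most like Cxcl9, and Cxcl9 at rank 126 among those most like Cxcl10. The gene most like Cxcl9 was ENSRNOG00000004284 (r = 0.951) and the one most like Cxcl10 was ENSRNOG00000010319 (r = 0.945). An r of at least 0.9 was reached by 26 genes for Cxcl9 and by 7 for Cxcl10.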

How the data were processed

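The authors deposited raw counts per gene, whole numbers with no normalization. Per the submitters' processing notes, cutadapt, featureCounts, DESeq2 and the build mRatBN7.2 were used. No aligner, version or strand setting is given in those notes, so reads of overlapping genes may be assigned in ways the counts do not show. Libraries were depleted of ribosomal RNA and strand-marked with dUTP, per the labels' protocols. The 12 early-stage columns were not used.

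The members, lists and tests were chosen with earlier results of these data known. Named were the members and, shortened because identifiers carry no symbol, the gene most like each in pattern. That likeness was to cover all 3 tables and covered 2.

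Each tissue was fitted alone in edgeR 4.0.16 (R 4.3.3, limma 3.58.1) with filterByExpr, TMM, the robust quasi-likelihood F test and Benjamini-Hochberg adjustment over all genes, two-sided, at 0.05. The fit was run on simulated counts with known fold changes as a check of the code. Log2 CPM used a prior count of 2. Alternatives were RLE and upper-quartile scaling, DESeq2 1.42.0, other filters, the lane-like code and leaving out each library, and, added after the data were seen, subsets by code and thinned counts. Since separate animals are not stated, p-values reflect only how libraries vary, which may be technical.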

Additional observations from a re-analysis of the deposited data

How the results depend on the processing

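No fold change of either gene changed sign in any alternative run. In brain, Cxcl9 stayed uncalled in all 16 alternatives (log2 fold change 0.61 to 1.55, adjusted p 0.341 to 1), and Cxcl10 was called in 11 of 17 (adjusted p 3.72e-07 with DESeq2 to 0.104), the call within code L1 resting on a lone plus-marked library, with 1.80 to 2.56 over single libraries left out and 1.74 within code L3. In spinal cord, Cxcl9 ranged from 3.29 to 4.23 and Cxcl10 from 0.94 to 2.13 over single libraries left out, and moved to 5.03 and 2.78 within code L24. Genes called in spinal cord numbered 2312, from 1175 to 2114 with a library left out (1463 without P3, 1341 without M1, 1175 without M2, 1398 without M3) and 267 within L24. In brain they numbered 41, from 8 to 60 with a library left out (8 without P1, 10 without P2, 13 without P3, 24 without M1, 22 without M3, 15 without M4), 203 with DESeq2, 74 with no filter on low counts and 71 within L1. The brain difference in Cxcl9 share ran from -12.5 to -3.29 points with a library left out. Cxcl9 in brain rests on 4 to 51 reads per library. No paired analysis was possible because the plus-marked and minus-marked columns of a tissue share no number, and no fit with a block was run. The early-stage comparisons were not run, and the planned listing of early-stage values is not given.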
